A study of Mus musculus with 8 samples.

Results

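Genes that drive DNA replication and mitosis were examined in No. 4 mammary glands of Th-POK knockout (KO) and wild-type (WT) mice. The list held 42 genes chosen by symbol for their known roles, 18 that act in the switch to S phase and in DNA replication and 24 that act in G2 and mitosis. The choice was made with earlier results of these data known. A probe was matched by accession for 40 of the 42, out of 18749 genes named on the array. Prc1 and Rrm2 had no matched probe. Only probes that every array of WT or every array of KO measured well above background were tested, which left 39 of the 42 genes, out of 14135 genes in all. Ttk, a kinase of the spindle checkpoint, was on the array but did not pass this filter.

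Total RNA was taken from whole glands of C57/Bl6 females at lactation day 1, and each of the 8 samples was run on a one-colour Agilent array, 4 WT and 4 KO. Each sample came from a separate dam, the mice were matched for age, and the age itself is not given in the sources used here. The KO mice lacked Th-POK, the zinc finger transcription factor encoded by Zbtb7b, in all tissues, T cells included, and not in the mammary epithelium alone. The study compared the genotypes to learn what Th-POK does in the gland when milk secretion begins. The 4 WT arrays lay on 1 slide and the 4 KO arrays on another, so genotype and slide cannot be told apart in any comparison given here. The share of probes well above background ranged from 66.8% to 75.3% over the arrays. As a check of the labels, Zbtb7b had log2 signals of 9.90, 10.42, 10.13 and 10.23 on WT arrays 1 to 4. It was above background on 0 of 4 KO arrays, where it was at least 81.5-fold lower (limma with Benjamini-Hochberg adjustment, adjusted p = 5.7e-09).

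A cell that leaves the resting state activates E2F factors, which switch on cyclin E and the genes that license and copy DNA. Genes for mitosis are repressed by the DREAM complex in resting cells. They are transcribed later, in G2, largely through the MuvB complex with B-Myb and FoxM1. Both complexes bind the cell cycle homology region (CHR) of promoters. In the mammary gland the alveolar epithelium divides extensively in pregnancy, and most of its cells have left the cycle once the gland is secretory. In RNA from whole tissue, fewer dividing cells and less of these transcripts per cell cannot be told apart.

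The upstream sequences of members that stand for both branches of this programme are shown to show the motifs of the S phase and the mitosis genes. Each is the 160 bases before the annotated start, written 5′ to 3′ on the strand of the gene, from RefSeq on GRCm38.p6. Capitals mark matches, on either strand, to an E2F site (TTTCCCGC, TTTGGCGC or TTTCGCGC), a CHR (TTTGAA or TTCGAA) or a CCAAT box (CCAAT). The first 6 are mitosis genes and the last 3 are S phase genes.
Mki67 (chr7:135716380-135716539, minus strand): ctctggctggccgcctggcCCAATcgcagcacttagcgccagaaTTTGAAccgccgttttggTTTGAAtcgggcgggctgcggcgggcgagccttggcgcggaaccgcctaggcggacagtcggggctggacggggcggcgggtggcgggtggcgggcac
Top2a (chr11:99024190-99024349, minus strand): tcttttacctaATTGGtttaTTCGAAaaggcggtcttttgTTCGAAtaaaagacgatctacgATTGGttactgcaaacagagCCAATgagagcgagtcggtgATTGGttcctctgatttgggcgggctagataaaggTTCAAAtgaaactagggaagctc
Cdk1 (chr10:69352913-69353072, minus strand): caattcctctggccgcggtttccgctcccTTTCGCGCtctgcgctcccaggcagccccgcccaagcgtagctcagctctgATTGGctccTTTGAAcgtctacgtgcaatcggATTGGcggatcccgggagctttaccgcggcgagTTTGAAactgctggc
Ccnb1 (chr13:100786487-100786646, minus strand): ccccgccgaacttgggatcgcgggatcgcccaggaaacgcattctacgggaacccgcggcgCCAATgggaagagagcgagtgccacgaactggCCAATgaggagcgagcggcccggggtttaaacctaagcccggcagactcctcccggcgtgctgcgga
Kif11 (chr19:37376222-37376381, plus strand): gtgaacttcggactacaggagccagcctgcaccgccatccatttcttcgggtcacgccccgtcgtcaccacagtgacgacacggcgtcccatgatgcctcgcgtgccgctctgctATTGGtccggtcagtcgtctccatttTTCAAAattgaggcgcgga
Cdc20 (chr4:118437344-118437503, minus strand): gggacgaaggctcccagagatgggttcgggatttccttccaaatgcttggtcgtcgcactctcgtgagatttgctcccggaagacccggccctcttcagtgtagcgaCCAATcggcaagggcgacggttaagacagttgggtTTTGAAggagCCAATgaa
Mcm5 (chr8:75109349-75109508, plus strand): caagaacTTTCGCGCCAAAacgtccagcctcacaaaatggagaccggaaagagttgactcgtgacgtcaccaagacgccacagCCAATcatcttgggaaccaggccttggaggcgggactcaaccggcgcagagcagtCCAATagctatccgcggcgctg
Mcm6 (chr1:128359706-128359865, minus strand): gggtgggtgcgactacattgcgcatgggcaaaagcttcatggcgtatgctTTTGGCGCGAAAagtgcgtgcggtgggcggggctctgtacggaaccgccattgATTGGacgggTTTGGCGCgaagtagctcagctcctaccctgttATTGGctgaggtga
Pcna (chr2:132253181-132253340, minus strand): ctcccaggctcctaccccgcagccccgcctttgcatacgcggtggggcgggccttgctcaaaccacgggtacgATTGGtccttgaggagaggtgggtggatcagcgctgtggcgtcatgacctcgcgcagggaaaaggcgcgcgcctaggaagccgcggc
Mki67, Top2a, Cdk1, Kif11 and Cdc20 hold CHR and CCAAT matches here, whereas Ccnb1 holds only CCAAT matches. Cdk1 holds an E2F match as well. In Mcm5 and Mcm6 a pair of E2F matches on opposite strands overlap to form 1 palindrome-like block, and Mcm6 has another nearer the start. Pcna holds only a CCAAT match.

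Motifs were counted over the whole RefSeq windows, from 250 bases before to 50 after each start. Windows were found for 35 of the 42 members, 21 windows of mitosis genes and 16 of S phase genes. A CHR match was present in 16 of 21 mitosis windows (76.2%) and in 3 of 16 S phase windows (18.8%), against 19.2% of 32851 windows of all genes. An E2F match was present in 1 of 21 mitosis windows (4.76%), that of Cdk1, and in 6 of 16 S phase windows (37.5%), against 1.84% of all windows. A CCAAT box was present in 85.7% of mitosis windows, 62.5% of S phase windows and 37.4% of all windows. The 3 S phase windows with a CHR belonged to Cdc45, Mcm2 and Mcm7. These counts describe letters in the windows and say nothing of binding. GC content differed, with medians of 59.0% for mitosis genes, 57.5% for S phase genes and 52.7% for all windows.

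Of the cell cycle genes, 9 were called lower in KO glands, and most of the others had a lower KO mean without passing the test. The mean signal was lower in KO than in WT for 38 of 39 members, against 52.4% of all genes tested. The exception was Bub1b, a checkpoint kinase-like protein, with a log2 difference of 0.03 ± 0.41 (standard error). At an adjusted p under 0.05, 9 of 39 members were lower and 0 were higher (limma with Benjamini-Hochberg adjustment over all genes). Over all genes, 8.94% were called lower and 7.53% higher. The unadjusted limma p was under 0.05 for 31 of 39 members and for 5135 of 14135 genes. The methods' t-test called 2 members lower (5.13%) and 0 higher, where it called 5.63% of all genes lower. The median log2 difference (KO minus WT) was -1.47 over the 39 members and -0.02 over all genes. In 22 of 39 members every KO array lay below every WT array, against 12.9% of all genes. Another 18 members had an adjusted p between 0.05 and 0.10.

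The 22 mitosis genes tested had a median log2 difference of -1.65, with 7 called lower, 18 at least 2-fold lower and 16 with no overlap between genotypes. The 17 S phase genes tested had a median of -1.12, with 2 called lower, 9 at least 2-fold lower and 6 with no overlap. Of these 2, Cdc45 passed the filter only through the WT arrays. Over all genes 8.94% were called lower, 563 of 14135 were at least 2-fold lower, and 12.9% had every KO array below every WT array. The difference between the mitosis and the S phase list was not tested. The plot of differences shows that the mitosis genes hold most of the large values, with S phase genes such as Tk1, Cdc6 and Mcm5 among them.

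**Figure D1:**
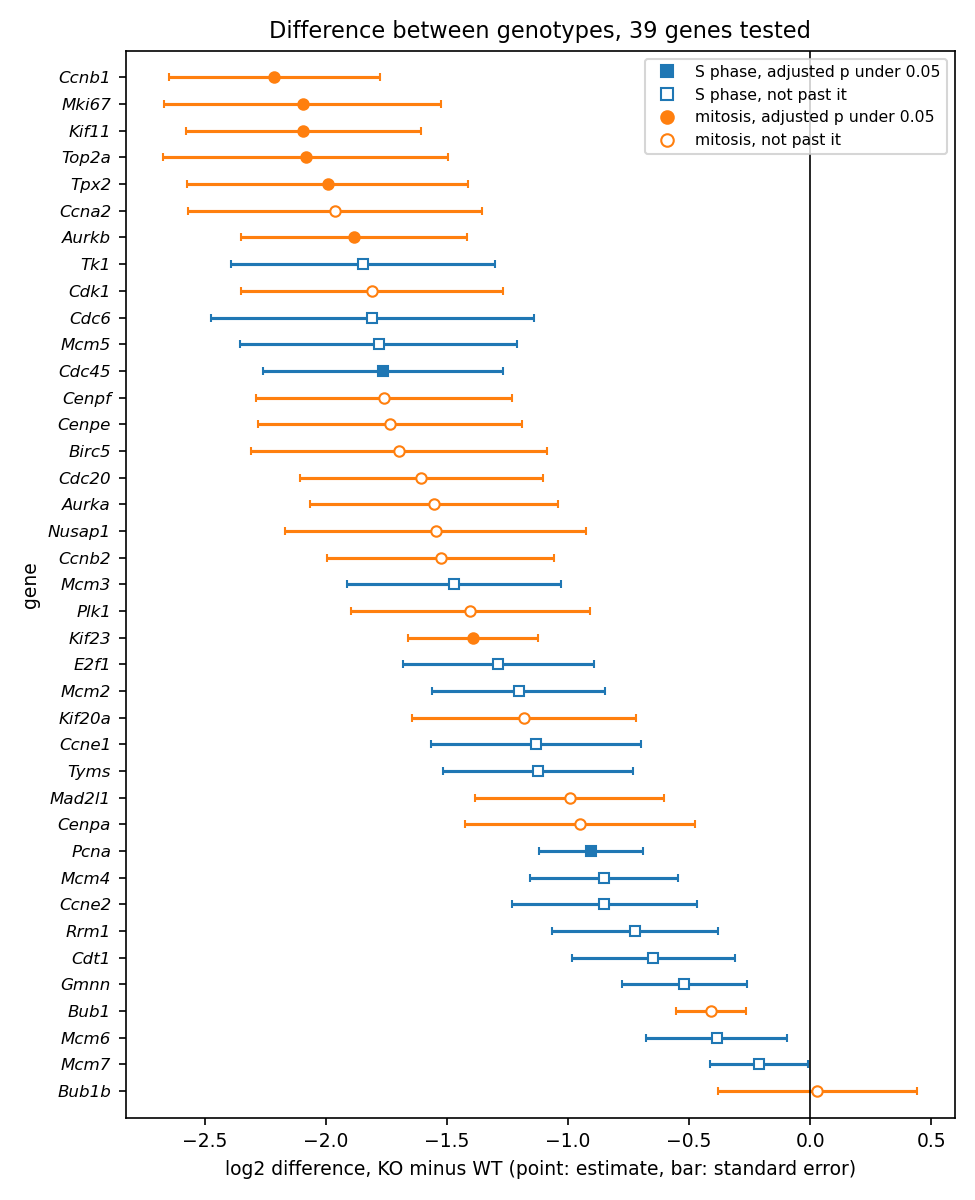
Log2 difference between genotypes (x axis, KO minus WT, 4 arrays each) for each of the 39 genes tested (y axis), with bars for the standard error. Squares are S phase genes and circles mitosis genes, filled where the adjusted p was under 0.05. Values run from -2.21 for Ccnb1 to 0.03 for Bub1b.

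Among genes that open the cell cycle, E2f1 encodes an activator of S phase genes, and Ccne1 and Ccne2 encode the E cyclins that activate Cdk2. None of the 3 was called. E2f1 differed by -1.29 ± 0.39 on the log2 scale (limma with Benjamini-Hochberg adjustment, adjusted p = 0.0561). With the replicate number as a blocking term its limma adjusted p was 0.0445. Ccne1 differed by -1.13 ± 0.43 and Ccne2 by -0.85 ± 0.38. The genotypes overlapped for all 3 genes, because WT array 1 lay within the range of the KO arrays, as WT array 3 did for Ccne2.

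Of the genes that license origins, Cdc6 and Cdt1 load the MCM helicase and Gmnn encodes geminin, the inhibitor of Cdt1. The log2 signal of Cdc6 was 4.82, 8.04, 5.66 and 7.67 on WT arrays 1 to 4, and 4.95, 4.62, 4.43 and 4.95 on the KO arrays. WT arrays 2 and 4 stood far above every KO array, and WT array 1 lay within the KO range. The difference was -1.81 ± 0.67 and was not called (adjusted p = 0.0907, limma with Benjamini-Hochberg adjustment). Cdt1 differed by -0.65 ± 0.34 and Gmnn by -0.52 ± 0.26, both with overlapping genotypes.

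Cdc45, the partner of the MCM ring in the active replicative helicase, was called lower. Its log2 signal was 4.12, 6.05, 4.89 and 6.67 on WT arrays 1 to 4 and 3.74, 3.38, 3.66 and 3.89 on the KO arrays. It was well above background on only 1 of 4 KO arrays, so it passed the filter only through the WT arrays. A filter over all 8 arrays left it untested. Every KO array was below every WT array, but the KO signals, and with them the size of the difference, are limited by background. The difference was -1.76 ± 0.49 (adjusted p = 0.0443, limma with Benjamini-Hochberg adjustment), and the call was kept only without WT array 1 when each array was left out in turn, with adjusted p from 0.0129 to 0.118.

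The MCM subunits form the ring that unwinds DNA. Mcm5 measured 8.35, 11.10, 9.22 and 10.95 on WT arrays 1 to 4 and 8.34, 8.0, 7.94 and 8.22 on the KO arrays. WT array 1 matched the highest KO array almost exactly, while WT arrays 2 and 4 were far above. The difference in Mcm5 was -1.78 ± 0.57 (adjusted p = 0.0634, limma with Benjamini-Hochberg adjustment). The other subunits differed by -1.47 ± 0.44 (Mcm3), -1.20 ± 0.36 (Mcm2), -0.85 ± 0.30 (Mcm4), -0.39 ± 0.29 (Mcm6) and -0.21 ± 0.20 (Mcm7). None of the 6 was called, and the genotypes overlapped for Mcm6 and Mcm7. On their own probes, the subunits of 1 complex therefore spanned log2 differences from -1.78 to -0.21.

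Pcna, the sliding clamp of DNA polymerase, was called lower and had the tightest KO arrays of the called genes. Its log2 signal was 12.11, 12.85, 12.12 and 13.00 on WT arrays 1 to 4 and 11.54, 11.64, 11.69 and 11.60 on the KO arrays. The genotypes did not overlap. The difference of -0.91 ± 0.22 was under 2-fold (1.87-fold lower, adjusted p = 0.0288, limma with Benjamini-Hochberg adjustment). The call was lost without WT array 2 or any one of KO arrays 1 to 3, with adjusted p up to 0.0761 over the 8 fits.

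The nucleotide supply genes followed the same order of WT arrays. Tk1, the S phase thymidine kinase, measured 7.84, 9.47, 8.84 and 10.74 on WT arrays 1 to 4 and 7.99, 7.08, 7.27 and 7.16 on the KO arrays. WT array 1 was below KO array 1, and the other WT arrays were above all KO arrays. The difference was -1.85 ± 0.54 (adjusted p = 0.0512, limma with Benjamini-Hochberg adjustment). Tyms, thymidylate synthase, differed by -1.12 ± 0.39 and passed the threshold when replicate number was a blocking term (limma adjusted p = 0.0336, against 0.0796 without it). Rrm1, the large subunit of ribonucleotide reductase, differed by -0.72 ± 0.34.

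Mki67 and Top2a encode the coat protein of mitotic chromosomes that is used as a proliferation marker and the topoisomerase that untangles chromosomes. Both were called lower. Mki67 measured 10.50, 12.06, 10.80 and 13.25 on WT arrays 1 to 4 and 9.90, 9.13, 9.15 and 10.04 on the KO arrays. Its genotypes did not overlap, with a 4.27-fold lower KO mean (log2 difference -2.10 ± 0.57, adjusted p = 0.0403, limma with Benjamini-Hochberg adjustment). The call was lost without WT arrays 2 or 3 or any one of KO arrays 1 to 3. Top2a measured 6.07, 8.11, 8.01 and 9.07 on WT arrays 1 to 4 and 5.94, 5.09, 5.45 and 6.46 on the KO arrays. WT array 1 lay below KO array 4, so Top2a was the 1 called gene whose genotypes overlapped. Its KO mean was 4.23-fold lower (log2 difference -2.08 ± 0.59, adjusted p = 0.0449, limma with Benjamini-Hochberg adjustment). Its call was kept only without WT array 1 or without KO array 4.

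The cyclins and kinases that drive entry into mitosis differed by at least 2-fold in all 6 cases, each with every KO array below every WT array. Over all genes tested, 563 of 14135 were at least 2-fold lower, and 12.9% had every KO array below every WT array. Ccnb1, cyclin B1, had the largest difference of the list. It measured 8.69, 10.36, 9.70 and 10.46 on WT arrays 1 to 4 and 7.20, 8.29, 6.97 and 7.91 on the KO arrays, a 4.63-fold lower KO mean (log2 difference -2.21 ± 0.43, adjusted p = 0.0183, limma with Benjamini-Hochberg adjustment). Of its dimmer probes, one differed by -1.56 and was above background on 3 of 4 KO arrays, and the other was above background on 0 of 4 KO arrays, where it was at least 2.92-fold lower. The probes disagreed in the pattern of the arrays. KO array 2 was the highest KO array on the brightest probe and the lowest on the dimmer ones (4.10 and 2.39). WT arrays 2 and 4 were close on the brightest probe but measured 5.63 and 7.99, and 5.14 and 7.39, on the dimmer ones. Ccnb1 lost its call without WT array 2 or either of KO arrays 1 and 3, with adjusted p no higher than 0.0554.

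The other 5 of this group were not called. Ccna2, cyclin A2, measured 8.09, 9.59, 9.0 and 11.40 on WT arrays 1 to 4 and 7.96, 7.19, 7.43 and 7.66 on the KO arrays. WT array 1 exceeded the highest KO array by little, and WT array 4 stood above all others. The difference was -1.96 ± 0.61 (adjusted p = 0.0577, limma with Benjamini-Hochberg adjustment). Cdk1, the kinase partner of these cyclins, measured 6.31, 7.81, 7.15 and 9.22 on WT arrays 1 to 4 and 5.97, 5.33, 5.84 and 6.11 on the KO arrays. The order of the WT arrays was the same as for Ccna2. Its difference of -1.81 ± 0.54 had an adjusted p of 0.0533 in limma with Benjamini-Hochberg adjustment, and 0.0450 when replicate number was a blocking term. Ccnb2, the kinase Plk1 and the spindle pole kinase Aurka differed by -1.53 ± 0.47, -1.40 ± 0.49 and -1.55 ± 0.51.

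At the centromere, Aurkb, the kinase of the chromosomal passenger complex, was called lower. It measured 5.79, 6.65, 6.13 and 8.24 on WT arrays 1 to 4 and 5.05, 4.72, 4.78 and 4.73 on the KO arrays, with no overlap. The difference was -1.88 ± 0.47 (adjusted p = 0.0319, limma with Benjamini-Hochberg adjustment), and the call was kept only without WT array 1 or without WT array 4. Birc5, survivin, a partner of Aurkb in the same complex, differed by -1.70 ± 0.61 with overlapping genotypes. Cenpf, a kinetochore protein of G2 and mitosis, measured 6.94, 7.69, 7.85 and 9.68 on WT arrays 1 to 4 and 6.79, 5.70, 6.32 and 6.32 on the KO arrays. The genotypes did not overlap, though WT array 1 and KO array 1 were close, and the difference of -1.76 ± 0.53 was not called (adjusted p = 0.0536, limma with Benjamini-Hochberg adjustment). Cenpe, the kinetochore motor, and Cenpa, the centromeric histone, differed by -1.73 ± 0.55 and -0.95 ± 0.47.

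Of the 5 spindle and midzone genes tested, 3 were called lower, and Kif20a and Nusap1 (-1.18 ± 0.46 and -1.55 ± 0.62) were not. Over all genes 8.94% were called lower. Kif23, a motor of the midzone and of cytokinesis, measured 5.82, 6.47, 6.78 and 7.08 on WT arrays 1 to 4 and 5.38, 4.94, 5.40 and 4.86 on the KO arrays. The genotypes did not overlap, and the difference was -1.39 ± 0.27 (adjusted p = 0.0174, limma with Benjamini-Hochberg adjustment). Kif23 was the only member called with each of the 8 arrays left out, with adjusted p from 0.00720 to 0.0465. Kif11, the motor that separates the spindle poles, measured 5.41, 6.26, 6.17 and 8.05 on WT arrays 1 to 4 and 4.59, 4.33, 4.50 and 4.11 on the KO arrays. It did not overlap either and differed by -2.09 ± 0.48 (adjusted p = 0.0269, limma with Benjamini-Hochberg adjustment), a call lost without WT arrays 2 or 3 or any one of KO arrays 1 to 3. Tpx2, which activates Aurka on the spindle, measured 7.07, 8.34, 7.98 and 10.23 on WT arrays 1 to 4 and 6.67, 6.0, 6.29 and 6.69 on the KO arrays. All KO arrays were below all WT arrays (log2 difference -1.99 ± 0.58, adjusted p = 0.0490, limma with Benjamini-Hochberg adjustment), a call kept only without WT array 1 or without WT array 4.

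The spindle checkpoint genes and Cdc20, the activator of the anaphase-promoting complex that the checkpoint restrains, were the mitosis group with the smallest median (-0.70). None was called. Cdc20 differed by -1.60 ± 0.50 and Mad2l1 by -0.99 ± 0.39, both without overlap. Bub1 differed by -0.41 ± 0.14 on its brightest probe. Its other probe, which also passed the filter, measured 4.79, 6.58, 5.98 and 8.30 on WT arrays 1 to 4 and 4.83, 4.65, 4.12 and 4.83 on the KO arrays, a difference of -1.81. The probes of Bub1 therefore disagreed in size and in the order of the WT arrays. Bub1b measured 5.86, 6.47, 6.55 and 8.01 on WT arrays 1 to 4 and 6.54, 7.17, 6.78 and 6.52 on the KO arrays, so WT array 1 was the lowest and WT array 4 the highest, with all KO arrays between them. Untested Ttk measured 6.04, 3.29, 2.86 and 5.72 on WT arrays 1 to 4, above background on 2 of them, and 2.54, 3.54, 1.44 and 2.40 on the KO arrays, above background on 0. Across the 14 members with several probes, 19 of 30 probes were above background on all 8 arrays, and 19 of those 19 had a lower KO mean. They include the brightest probe of each of the 14 genes, already counted above, so for those the direction is no separate result. The others were second probes of Ccne1, E2f1, Kif23, Mki67 and Tyms. Over all genes tested, 52.4% had a lower KO mean. A second probe of Cenpf, above background on 1 array, had a higher KO mean.

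**Figure D2:**
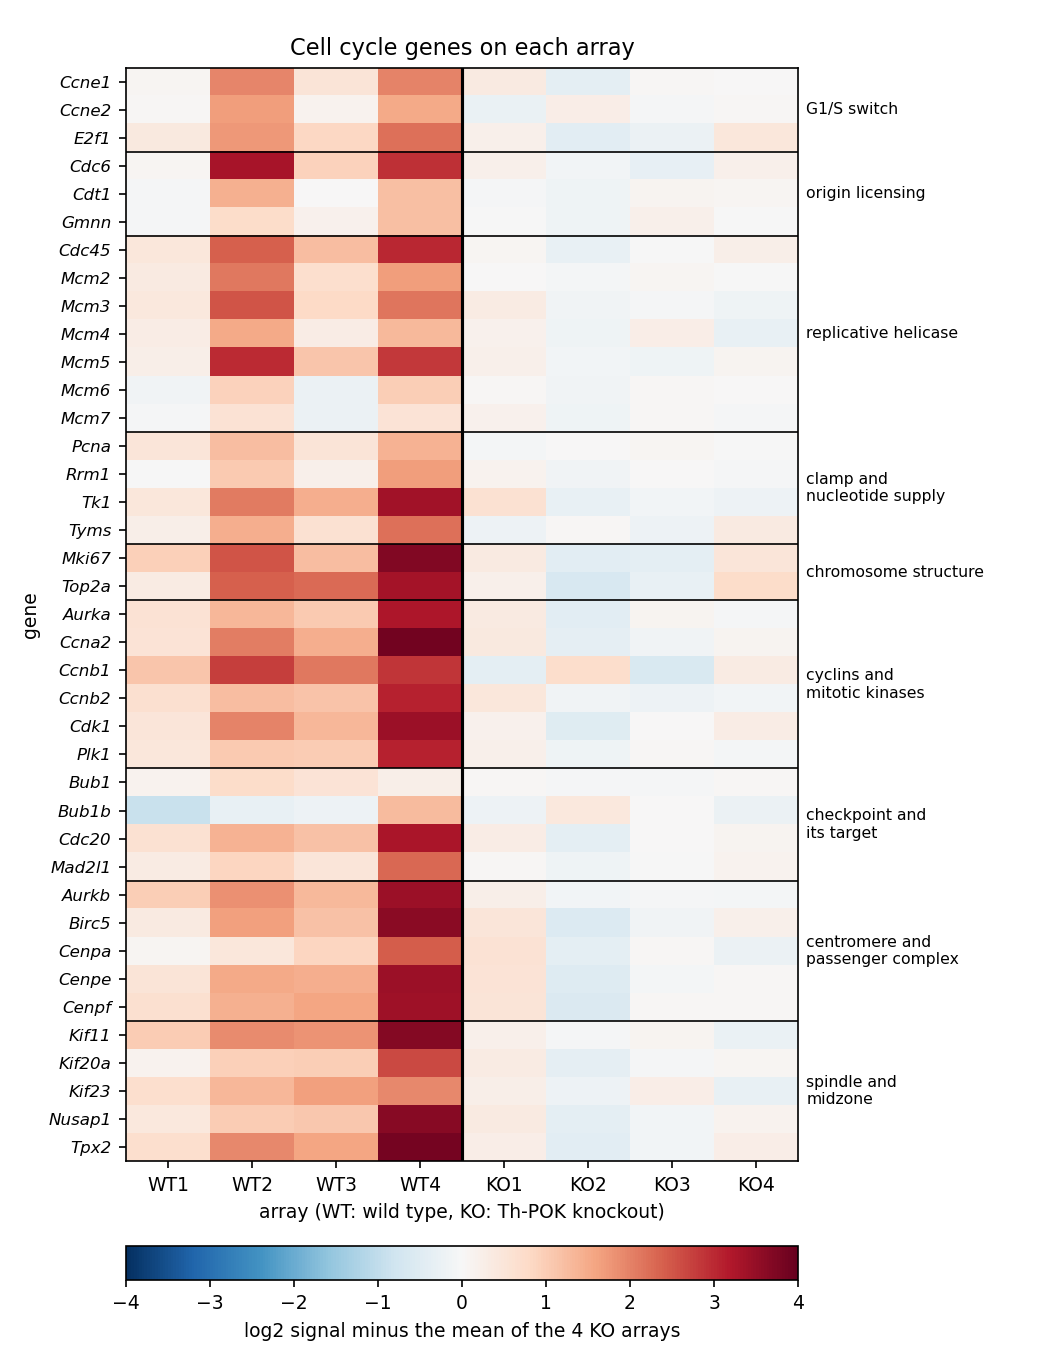
Log2 signal of each of the 39 genes (y axis, grouped by role) on each of the 8 arrays (x axis), as colour, relative to the mean of the 4 KO arrays for that gene. The KO columns are near 0, the WT 1 column is pale, and the WT 2 and WT 4 columns are the darkest.

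The WT glands varied far more than the KO glands in these genes. The standard deviation was larger among WT than among KO arrays in 39 of 39 members, against 58.6% of all genes. Its median was 1.05 in WT and 0.28 in KO over the members, and 0.23 and 0.19 over all genes. In 23 of 39 members the WT arrays ran 1, 3, 2, 4 from lowest to highest, as the heat map of arrays shows. WT array 1 was the lowest WT array in 36 of 39 members, against 28.5% of all genes, and the remaining 3, which were lowest on WT array 3, were the helicase genes Mcm4, Mcm6 and Mcm7. WT array 4 was the highest in 21 of 22 mitosis genes, all but Bub1. Among the S phase genes, WT array 4 was the highest in 9 and WT array 2 in 8 of 17. The 8 with WT array 2 highest included 5 of the 7 helicase genes, and the 4 nucleotide supply and clamp genes all had WT array 4 highest.

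The lists were also averaged by array. Relative to the mean of the KO arrays, the mean log2 signal of the 17 S phase genes was 0.19, 1.74, 0.53 and 1.89 on WT arrays 1 to 4. That of the 22 mitosis genes was 0.49, 1.45, 1.23 and 2.98. On WT array 2 the S phase genes were further above the KO mean than the mitosis genes, and on the other 3 WT arrays the mitosis genes were. The KO arrays lay between -0.15 and 0.12 for the S phase genes and between -0.26 and 0.26 for the mitosis genes. The group means differed by -1.09 for the S phase genes (SD 0.85 in WT and 0.11 in KO, n = 4 each) and by -1.54 for the mitosis genes (SD 1.05 and 0.22). All 4 WT arrays were above all KO arrays for both means, but for S phase genes WT array 1 was at 0.19 and the highest KO array at 0.12.

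**Figure D3:**
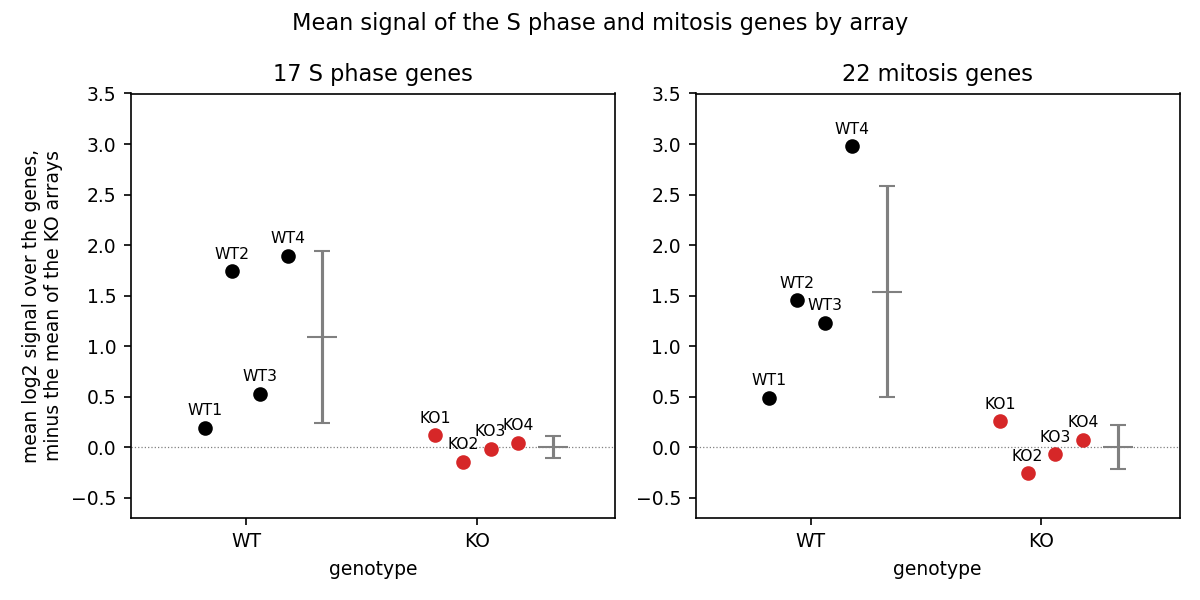
Mean log2 signal per array over the 17 S phase genes (left) and the 22 mitosis genes (right), relative to the mean of the KO arrays (y axis), for WT (black) and KO (red) arrays on the x axis. Grey bars are the group mean and SD (n = 4). WT array 4 is highest in both panels at 1.89 and 2.98, while WT array 2 is next to it only on the left.

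The WT arrays also differed in how many genes exceeded the KO arrays. The number of S phase genes above the highest KO array was 6, 17, 12 and 17 of 17 on WT arrays 1 to 4. For the mitosis genes it was 16, 20, 21 and 22 of 22. Over all genes it was between 26.8% and 36.7% on the WT arrays. The S phase mean minus the mitosis mean was 1.09, 1.67, 0.68 and 0.30 on WT arrays 1 to 4, and 1.25, 1.5, 1.44 and 1.35 on the KO arrays. The KO arrays lay inside the WT range, and the KO mean was 0.45 above the WT mean. With the median over the genes of each list in place of the mean this difference was -0.01, so it had no settled direction.

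The calls depended on single arrays. Without WT array 1, 29 of 39 members were called lower (11 S phase and 18 mitosis genes) where 11.9% of all genes were. Without WT array 4 it was 13 (7.22% of all genes), 12 of them mitosis genes. The count fell to 1 without WT array 2 and without either of KO arrays 1 and 3, to 2 without KO array 2, to 3 without WT array 3 and to 6 without KO array 4. Calls over all genes fell along with it, to between 1.76% and 3.62% for the fits with 3 or fewer members called. Without KO array 4, 8.96% of all genes were called lower. The number of members with a lower KO mean was 38 or 39 in each of the 8 fits.

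The size of the differences depended on the background correction and on WT array 4. With normexp on median signals 11 of 38 members, Bub1b aside, shrank by over 1.5 times. Among the called genes Kif23 then differed by -0.64, Cdc45 by -0.66 and Top2a by -1.39, each still called, and Kif11 by -0.97 and Aurkb by -0.84, neither called (limma adjusted p = 0.0669 and 0.0918). Of the genes not called, Cdk1 then differed by -1.20, Cenpf by -1.11, E2f1 by -0.82, Cdc6 by -0.97, Mad2l1 by -0.66 and Ccne2 by -0.32. Without WT array 4, 13 of 38 shrank by over 1.5 times, none of them called with all arrays. They included Ccnb2 (-1.01), Cdc20 (-1.05), Plk1 (-0.84) and Aurka (-0.996), which were called in that fit, and Birc5 (-1.06), Nusap1 (-0.85), Kif20a (-0.69) and Cenpa (-0.46), which were not. Without WT array 2, Cdt1, Mcm6 and Mcm7 shrank to -0.39, -0.21 and -0.09, and without WT array 3, Mcm6 and Mcm7 grew to -0.60 and -0.36. With array weights, Mcm4 (-0.55), Cdt1 (-0.38), Gmnn (-0.32), Mcm6 (-0.13) and Mcm7 (-0.03) shrank by over 1.5 times, none of them called. With the mean of its probes Bub1 differed by -1.11.

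**Figure D4:**
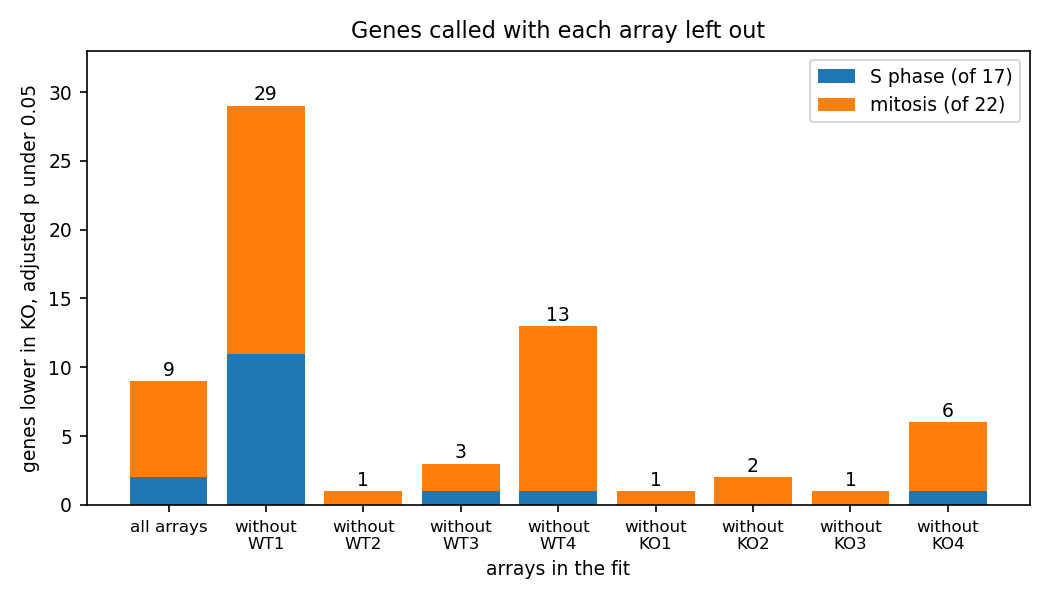
Number of the 39 genes called lower in KO (y axis, adjusted p under 0.05) with all 8 arrays and with each array left out (x axis), stacked by S phase and mitosis genes. The bar without WT array 1 reaches 29, against 9 with all arrays.

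Other genes of the same pathways were read from lists chosen by role, also with earlier results of these data known. The counts below stand beside 8.94% of all genes called lower and 7.53% called higher. Of 37 further origin, helicase and fork genes tested, 6 were called lower and 0 higher, with a median log2 difference of -0.53. The 4 of them with the smallest p were Pold2, a subunit of polymerase delta (-1.36 ± 0.18), Dut, which removes dUTP (-1.12 ± 0.25), Rpa2, which binds single-stranded DNA (-0.79 ± 0.19), and Gins2 of the helicase (-1.17 ± 0.29). Pold2 measured 8.43, 9.30, 9.09 and 8.72 on WT arrays 1 to 4 and between 7.39 and 7.63 on the KO arrays, so WT array 1 was well clear of the KO arrays in this gene, and it was called with each array left out. Of 18 genes of S phase repair and checkpoint, only Exo1, a DNA exonuclease, was called, with a difference of -2.41 ± 0.61 and a list median of -0.64. Of 50 further genes of mitosis and cytokinesis, 8 were called lower and 1, the anaphase-promoting complex subunit Anapc5, higher (0.37 ± 0.10), with a median of -1.20. The 4 lower genes with the smallest p were Bora, an activator of Aurka (-0.88 ± 0.18), the centromere protein gene Cenpm, the spindle motor Kif15 and the kinetochore gene Nuf2 (-2.01 ± 0.49). Cenpm and Kif15 were above background on 0 of 4 KO arrays, where they were at least 3.82-fold and 1.70-fold lower. With normexp background correction neither was called (-0.81 and -0.27, limma adjusted p = 0.0751 and 0.203), and Nuf2 differed by -1.26. Of the other lower genes, Spc24 and Anln were above background on 3 and 2 of 4 KO arrays. Like Cenpm and Kif15, they passed the filter only through the WT arrays. Anapc5 differed by 0.20 and was not called with 75th percentile scaling (limma adjusted p = 0.207), and it was called under 6 of 19 alternatives. Gins2 and Anapc5 were not called when replicate number was a blocking term (limma adjusted p = 0.0548 and 0.0581).

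Upstream of these genes, single regulators were called in each direction, where 8.94% of all genes were called lower and 7.53% higher. Of 13 cyclins, kinases and pocket proteins of G1, 1 was called lower, the pocket protein Rbl2 (-0.68 ± 0.14), and 1 higher, the retinoblastoma gene Rb1 (1.08 ± 0.28), with a median of -0.05. No probe was matched to Ccnd1. Myc, an inducer of growth and division, differed by 0.30 ± 0.13 and was not called (adjusted p = 0.140, limma with Benjamini-Hochberg adjustment). Of 16 E2F, DREAM and MuvB genes, Tfdp1, the partner of E2F proteins (-0.76 ± 0.15), and Mybl2, which encodes B-Myb (-1.17 ± 0.33), were called lower and the MuvB subunit Lin9 higher (1.11 ± 0.19). The median over the 16 was -0.11, with 12 lower in mean. E2f8, a repressor of the E2F family, measured 4.45, 6.99, 5.64 and 7.81 on WT arrays 1 to 4 and 4.43, 3.86, 3.77 and 4.36 on the KO arrays, and was above background on 3 of 4 KO arrays. The genotypes did not overlap, with WT array 1 next to KO array 1, and the difference of -2.12 ± 0.64 was not called (adjusted p = 0.0548, limma with Benjamini-Hochberg adjustment). Foxm1 measured 6.15, 7.20, 6.83 and 8.84 on WT arrays 1 to 4 and 6.65, 5.92, 5.84 and 6.44 on the KO arrays. WT array 1 lay within the KO range, and the difference of -1.04 ± 0.51 was not called (adjusted p = 0.176, limma with Benjamini-Hochberg adjustment). Without WT array 4 it was -0.51.

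Among 14 CDK inhibitors and p53 targets, 0 were called lower and 3 higher, with a median of 0.19 and list means of 9.67 to 9.85 on the WT arrays and 9.89 to 10.13 on the KO arrays. The higher genes were Gadd45a (1.21 ± 0.24), Gadd45b (1.22 ± 0.30) and Btg2 (0.98 ± 0.28), which respond to stress and slow the cycle. When replicate number was a blocking term Btg2 was not called (limma adjusted p = 0.0617). Of the CDK inhibitors themselves, Cdkn1b (p27) differed by 0.52 ± 0.17 (adjusted p = 0.0677) and Cdkn1a (p21) by -0.88 ± 0.40 (adjusted p = 0.152), neither called by limma with Benjamini-Hochberg adjustment. When replicate number was a blocking term Cdkn1a was called lower (limma adjusted p = 0.0498). Over the 6 pathway lists together 18 of 148 genes (12.2%) were called lower and 6 (4.05%) higher, beside 8.94% and 7.53% of all genes. The 18 included Cenpm, Kif15, Spc24 and Anln, which passed the filter only through the WT arrays. Without WT array 1 the counts were 56 lower and 5 higher, where 11.9% of all genes were called lower. The lower calls fell to 2 without either of KO arrays 1 and 3, 3 without WT array 2, 4 without KO array 2 and 10 without WT array 3. The higher calls fell to between 1 and 3 in those same 5 fits. In them between 1.76% and 3.62% of all genes were called lower. Of the pathway genes named, Pold2 and Lin9 were called with each of the 8 arrays left out.

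Markers of the cell types of the gland were read beside these genes. Over all genes 8.94% were called lower in KO and 7.53% higher. Each of the 10 luminal markers was detected above background on every array. The mean log2 signal of the luminal list was 12.52 to 13.09 on the WT arrays and 13.26 to 13.55 on the KO arrays, with 4 of 10 genes called higher in KO and 0 lower. Those called were Cldn4 (2.51 ± 0.45), by far the largest, Cldn3 (1.11 ± 0.25), Krt18 (0.67 ± 0.17) and Epcam (0.52 ± 0.14). Elf5 (-0.35 ± 0.14), Prlr (-0.20 ± 0.19) and Ehf (-0.03 ± 0.28) had a lower KO mean. The median difference over the 10 was 0.48. The neutrophil list, with 7 of 9 matched genes tested, was 7.23 to 7.72 on the WT arrays and 9.08 to 10.05 on the KO arrays, with 3 genes called higher. Of those, Ltf (1.31 ± 0.17) encodes lactoferrin, which milk-secreting epithelium also makes. Camp and Ngp, which encode granule proteins, were above background on all 4 KO arrays and on 0 of 4 WT arrays, and were at least 8.54-fold and 7.11-fold higher in KO. Without them the list was 9.07 to 9.86 on the WT arrays and 10.06 to 11.10 on the KO arrays. Mpo and Csf3r differed by 0.24 and 0.08 and were not called. Elane of that list was above background on 0 arrays. The list of T cells, whose helper lineage needs Th-POK, was 6.31, 7.40, 7.57 and 6.20 on WT arrays 1 to 4 and 6.29 to 6.68 on the KO arrays. Of its 8 genes tested, 1 was called lower, Cd3e (-0.60 ± 0.16). Cd3e was called in 2 of 8 fits with 1 array left out, and not with the methods' t-test (adjusted p = 0.0660). Cd4, the marker of the helper lineage, was above background on 5 arrays and was not tested. The highest WT arrays of the T cell list were 2 and 3, whereas those of the cell cycle genes were 2 and 4. The B and plasma cell list was 6.59 to 7.38 on the WT arrays and 6.80 to 7.03 on the KO arrays, with Cd79b, a part of the B cell receptor, called higher (1.05 ± 0.29) and Pax5 and Blk above background on 0 arrays. Of its 8 genes tested, 5 had a lower KO mean. The adipocyte list was 12.62 to 13.27 on the WT arrays and 13.19 to 13.39 on the KO arrays, with Plin1 (0.71 ± 0.19) and Cfd (0.68) of its 9 genes called higher. Lep (-0.73 ± 0.55) and Pparg (-0.05 ± 0.10) had a lower KO mean and were not called. The fibroblast list was 12.92 to 13.25 on the WT arrays and 13.16 to 13.70 on the KO arrays, with Dcn of its 9 genes tested called higher (0.50 ± 0.11) and 8 higher in mean. The basal epithelium list was 12.33 to 12.85 and 12.25 to 12.54, with Krt17 of its 10 genes called lower (-1.22 ± 0.32) and 3 higher in mean. The macrophage list (9.90 to 10.41 and 9.89 to 10.76) and the endothelium list (10.10 to 10.23 and 9.97 to 10.34) had 0 genes called. The part of these cell types in the cell cycle differences was not tested.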

How the data were processed

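RNA of No. 4 mammary glands at lactation day 1, 4 WT and 4 KO biological replicates per the labels, was hybridised to one-colour Agilent arrays. The authors deposited the scanner output of Agilent Feature Extraction (10.7 in the processing notes, 10.7.3.1 in the file headers), in which the processed intensity is background-subtracted within an array with no step between arrays. A second table that the authors deposited holds log2 values, quantile-normalized in GeneSpring, and was used only as an alternative (each column correlated with its array at r above 0.99, and its columns had medians of 6.33, so it is on an uncentred log2 scale). 

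Intensities were log2-transformed and quantile-normalized with limma 3.58.1 in R 4.3.3, without control spots. Outlier spots (64 to 100 per array) were left out after the normalization. Spots of a probe were averaged, giving 41174 probes, of which 27479 were named through their accession in a RefSeq gene table (18749 genes). A gene was represented by its brightest probe. Probes well above background on all arrays of a genotype were tested (14135 genes) with lmFit and eBayes, adjusted by Benjamini-Hochberg, and called at an adjusted p under 0.05. The fold of Zbtb7b is a lower limit, taken against the higher of its own signal and the lowest signal well above background on each KO array. The scripts were tested on simulated data. The number of arrays limits the precision.

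The members and gene lists were chosen with earlier results of these data known. Values on every array are given for called members and for the 6 others with the largest differences, and of each pathway list up to 4 called genes by p. Alternatives covered scaling, background correction, filter, probe choice, test and each array left out. Same-numbered WT and KO arrays deviated together from their group means (r = 0.219, 0.165, 0.304 and 0.282 for replicates 1 to 4), so the number was also fitted as a block. The mean for other pairs was -0.08. Deviations from a group mean cancel within the group, so that mean largely follows from the same-numbered pairs and is no separate contrast. The labels do not say what the number shares, and the arrays of a number did not share a slide. Promoter windows came from a RefSeq table on GRCm38.p6, and the array design named mm9, so no probe coordinates are given.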

Additional observations from a re-analysis of the deposited data

Results flagged for a closer look

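For each of the 39 members and the list means, the WT and the KO arrays were examined for an array set apart from the other 3. Of 84 such groups of 4 arrays, 2 had one. Ccnb2 had a log2 signal of 9.29 on KO array 1, where the other KO arrays lay between 8.65 and 8.73. Mcm6 had a log2 signal of 12.54 on KO array 2, where the other KO arrays lay between 12.71 and 12.74. Chance sets an array apart in about 1 in 20 groups.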

How the results depend on the processing

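Under each alternative 37 to 39 of the 38 to 40 members tested had a lower KO mean. The count called lower (9, of which 2 S phase and 7 mitosis genes) was 9 with 75th percentile scaling, with the authors' table and with unnamed probes kept, and 8 with the mean of a gene's probes. It was 10 with a filter over all 8 arrays, which kept 8 of the 9 and left Cdc45 untested. It was 6 with normexp on median signals, which called 4 mitosis genes. With no filter it was 4 (1 S phase, 3 mitosis), where 5.23% of all genes were called lower. With the methods' t-test it was 2 (0 S phase, 2 mitosis), where 5.63% of all genes were called lower. With the replicate number as a block it was 12, with 4 S phase genes, the 9 kept and Cdk1, E2f1 and Tyms added, and the block changed no other call of a member; of the pathway genes named it ended those of Gins2, Anapc5 and Btg2 and added Cdkn1a. An intensity trend with robust spread gave 12 (4 S phase genes) and array weights 23 (7 S phase, 16 mitosis). Both, and normexp on median signals, were chosen after seeing the data. The share of all genes called lower was 9.30% with the trend, 14.9% with array weights, 10.8% with the block and 8.36% with normexp. With 75th percentile scaling, the authors' table, unnamed probes, probe means and the 8-array filter the share was 10.2%, 8.87%, 7.51%, 8.96% and 8.59%. Pathway genes called (18 lower, 6 higher) were 10 and 2 with no filter, 4 and 3 with the t-test, 35 lower with array weights, and 2 to 56 and 1 to 5 with 1 array left out. Leaving out 1 array gave 1 to 29 members, 0 to 11 S phase and 1 to 18 mitosis genes, and mean differences of -1.39 to -0.82 (S phase), -1.89 to -1.06 (mitosis) and 0.24 to 0.70 (S phase minus mitosis). The last changed sign with list medians (-0.011). Bub1b changed sign with normexp (-0.047) and without WT array 1 (-0.26), WT array 2 (-0.06), WT array 3 (-0.03) or KO array 2 (-0.11), over a range of -0.26 to 0.46 with 1 array left out. The cause was not tested. Kif23 was called under all 19 alternatives, Ccnb1 under 16 and Pcna under 14. Normexp on mean signals was planned but not run, as the files used here hold median signals. Dim members such as Cdc45 are limited by background.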
